A study of Mus musculus with 8 samples.

Results

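Small nucleolar ribonucleoproteins (snoRNPs) are particles in which a small nucleolar RNA (snoRNA) guides a set of core proteins to a base of another RNA. Box H/ACA particles, built on Dkc1, Nhp2, Nop10 and Gar1, convert uridine to pseudouridine, and box C/D particles, built on Fbl, Nop56, Nop58 and Snu13, add methyl groups to ribose. Ribosomal RNA is their best known substrate, the H/ACA core is also part of telomerase, and lymphocytes make more ribosomes when they are activated.

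The genes described here are the 4 H/ACA core genes Nop10, Nhp2, Gar1 and Dkc1, the 3 C/D core genes Fbl, Nop56 and Nop58, and Naf1, whose protein holds the place of Gar1 in an H/ACA particle under assembly. They were selected by symbol, through the Ensembl identifiers of GENCODE M21 (GRCm38), and are 8 of the 51826 genes in the count matrix. The selection was made with the contrast between tRA and control known, and Nop10 is among the genes that the study picked on these mice. Differences between the groups in these 8 genes are therefore given as a description. The calls of the fits across all genes are counted once for them and support nothing. All 8 passed the filter on low counts that left 16484 genes for testing.

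The data are RNA sequencing counts from 8 female Balb/c mice, with a library of total splenocytes per mouse. The mice were 3 months old when their spleens were taken. The 4 tRA mice received all-trans-retinoic acid, the active metabolite of vitamin A, by mouth each day from weaning, and the 4 control mice received the vehicle, canola oil. No mouse received pristane. The sample labels carry a tRA dose of 1 mg/kg for all 8 mice, controls included. The paper assigns the agent to the tRA group alone, and the grouping follows the sample titles. Counts on genes totaled 30919272 to 37539631 per control mouse and 31810417 to 35165876 per tRA mouse. Levels are given as CPM, counts scaled by TMM to a common library size, and fold changes are tRA over control on the log2 scale. Total splenocytes are a mixture, so fewer cells of a type and less RNA per cell cannot be told apart.

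Across all genes tested, edgeR's quasi-likelihood test gave 0 genes at an FDR under 0.1 and 1070 at an unadjusted p under 0.05. The latter count was 2105 when tRA replicate 1 was left out and 657 when tRA replicate 4 was, and the latter fit also had 3 genes at an FDR under 0.1. DESeq2 gave 44 genes at that FDR on the genes that passed the edgeR filter and 27 without that filter, a setting chosen after seeing the data. Of the 8 snoRNP genes, edgeR called 0 at an FDR under 0.1 (0% of all genes tested) and had 2, Nop10 and Fbl, at an unadjusted p under 0.05 (6.49% of all genes tested). Both of these were lower with tRA (3.55% of all genes tested) and 0 of the 8 were higher (2.94%). DESeq2 called 1 of the 8, Nop10 (0.339% of its genes), and 0 of the 8 without the edgeR filter. As the contrast chose the genes, nothing is read from these counts.

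Nop10 (ENSMUSG00000027133, chromosome 2 from 112261926 to 112263269, plus strand) encodes the smallest H/ACA core protein, which binds the catalytic domain of dyskerin, the product of Dkc1. Its level was 34.1, 29.8, 32.2 and 28.3 CPM in control mice 1 to 4 and 26.5, 23.5, 22.6 and 24.2 CPM in tRA mice 1 to 4. All tRA mice lay below all control mice, the nearest pair being tRA mouse 1 and control mouse 4. The mean was 31.1 ± 2.55 CPM (SD, n = 4) in controls and 24.2 ± 1.66 (SD, n = 4) with tRA. The log2 fold change was -0.36 (standard error 0.084). Nop10 was the sole gene of the 8 whose groups did not overlap, where 1.63% of all genes tested had every tRA mouse below every control mouse 1.91% had every tRA mouse above, and 3.54% were separated either way.

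Nhp2 and Gar1 encode the other small H/ACA proteins. Nhp2 (ENSMUSG00000001056) was at 29.0, 27.3, 33.2 and 27.9 CPM in the control mice and at 29.1, 27.8, 23.3 and 24.4 CPM in the tRA mice. Gar1 (ENSMUSG00000028010) was at 30.4, 23.7, 30.7 and 25.1 CPM in the control mice and at 28.9, 24.4, 21.2 and 23.8 CPM in the tRA mice. For both genes tRA mice 1 and 2 lay within the control range, as did tRA mouse 4 for Gar1, and tRA mouse 3 had the lowest value of all 8 mice. The log2 fold change was -0.17 (standard error 0.096) for Nhp2 and -0.16 (standard error 0.12) for Gar1.

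Dkc1 (ENSMUSG00000031403, chromosome X from 75095854 to 75109777) encodes the pseudouridine synthase itself. Its level was 71.4, 65.8, 78.0 and 68.9 CPM in the control mice and 76.8, 76.0, 83.7 and 78.7 CPM in the tRA mice. The groups overlapped through control mouse 3, which lay above tRA mice 1 and 2. The log2 fold change was 0.15 (standard error 0.069), opposite in sign to that of the other 3 H/ACA core genes. Naf1 (ENSMUSG00000014907), the assembly factor, was at 10.8, 8.22, 10.1 and 8.60 CPM in the control mice and 9.59, 9.01, 9.06 and 8.71 CPM in the tRA mice. The tRA values of Naf1 lay inside the control range, with a log2 fold change of -0.054 (standard error 0.12), which was 0.018 without control replicate 1.

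Of the C/D core genes, Fbl (ENSMUSG00000046865) encodes fibrillarin, the methyltransferase. It was at 82.4, 71.8, 82.7 and 74.0 CPM in the control mice and at 80.3, 66.2, 57.4 and 61.8 CPM in the tRA mice. tRA mouse 1 lay within the control range and the other tRA mice below it, with a log2 fold change of -0.23 (standard error 0.10). Nop56 (ENSMUSG00000027405) and Nop58 (ENSMUSG00000026020) encode the paired scaffold proteins that hold fibrillarin on the RNA. Nop56 ranged from 208 to 256 CPM in the control mice and from 199.9 to 254 CPM in the tRA mice, with a log2 fold change of -0.071 (standard error 0.093). Nop58 ranged from 84.7 to 102 CPM in the control mice and from 93.2 to 104 CPM in the tRA mice, with a log2 fold change of 0.073 (standard error 0.072). Both pairs of ranges overlapped over most of their length. Snu13 (ENSMUSG00000063480), the core protein that first binds the C/D RNA and that is outside the selected genes, was at 38.9 ± 5.18 CPM (SD, n = 4) in controls and 32.7 ± 5.43 (SD, n = 4) with tRA, and its groups overlapped.

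**Figure D1:**
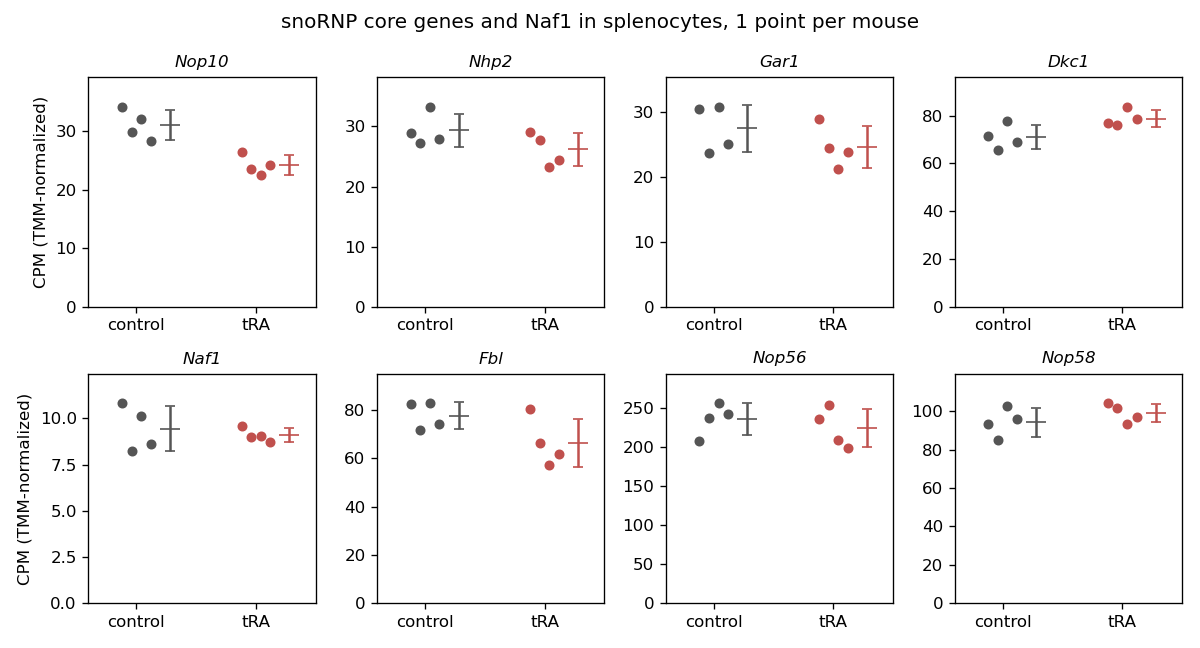
Level of each gene in CPM after TMM scaling, with 1 point per mouse and the mean with its SD beside the points, for 4 control and 4 tRA mice, each vertical axis starting at 0. For Nop10 the tRA mice lie between 22.6 and 26.5 CPM and the control mice between 28.3 and 34.1 CPM, while the groups of the other 7 genes overlap.

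The median log2 fold change of the 8 genes was -0.12, beside 0.0014 over all genes tested. It was -0.071 without control replicate 3 and -0.076 without tRA replicate 3. Of the 8 genes, 6 had a negative value and 2 a positive one, where 49.7% of all genes tested were negative. Each sign held with RLE normalization and with library size alone. The log2 CPM of each gene was also centred on its own mean over the 8 mice, and the median over the 8 genes was taken in each mouse. That median was 0.14, -0.070, 0.18 and 0.0021 in control mice 1 to 4 and 0.065, -0.012, -0.19 and -0.15 in tRA mice 1 to 4. tRA mice 3 and 4 were thus the lowest, and tRA mice 1 and 2 lay within the control range.

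Ratios of counts within a mouse do not depend on scaling between libraries, and they were formed for all 9 pairs inside a core, 6 in the H/ACA core and 3 in the C/D core, after the values had been seen. Nothing is read from how many pairs separate the groups, since no share over pairs of other genes was computed. The ratios compare mice and are not ratios of molecules, since the genes differ in length. The groups did not overlap for 3 pairs, each of which sets a gene with a negative fold change over one with a positive fold change. Nop10 counts divided by Dkc1 counts gave 0.478, 0.453, 0.413 and 0.412 in the control mice and 0.345, 0.310, 0.270 and 0.307 in the tRA mice. Nhp2 divided by Dkc1 gave 0.413 ± 0.0101 (SD, n = 4) in controls and 0.333 ± 0.0469 (SD, n = 4) with tRA. Fbl divided by Nop58 gave 0.828 ± 0.0474 (SD, n = 4) in controls and 0.669 ± 0.0701 (SD, n = 4) with tRA, and here the lowest control mouse, at 0.773, and the highest tRA mouse, at 0.772, were nearly equal. Nhp2 divided by Gar1 was 1.07 ± 0.0847 (SD, n = 4) in controls and 1.07 ± 0.0625 (SD, n = 4) with tRA.

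To compare levels between genes, CPM was divided by the summed exon length in kilobases and averaged over the 8 mice. Nop56 was highest at 56.3 CPM per kilobase, followed by Nop10 at 24.9, Nhp2 at 24.2, Dkc1 at 18.2, Fbl at 17.1, Gar1 at 15.2, Nop58 at 8.97 and Naf1 at 2.99. The group means gave other orders in part. Nop10 lay above Nhp2 in controls (28.1 and 25.6) and below it with tRA (21.8 and 22.8). Dkc1 lay below Fbl in controls (17.2 and 18.5) and above it with tRA (19.1 and 15.8). The ranges over mice overlapped between Nop10 and Nhp2 and among Dkc1, Fbl and Gar1, and for no other pair. They touched most closely without overlap between Nhp2, whose lowest mouse was at 20.35, and Dkc1, whose highest was at 20.30. The order depends on the length used, since the exons of Nop58 sum to 10758 bases, including retained introns, against 1713 bases for its principal transcript. With the longest annotated transcript in place of the summed exons, 22 of 28 pairs of genes stood in the same order, and Nop10 at 24.9 lay below Fbl at 29.9, Dkc1 at 26.7 and Nhp2 at 26.6 CPM per kilobase. With principal transcripts, a setting chosen after seeing the data, the level of Nop58 was 56.3, that of Fbl 60.2 and that of Nop56 123 CPM per kilobase, and 18 of 28 pairs of genes stood in the same order. Nop10 then lay below these 3 genes and below Dkc1 and Nhp2, so its place near the top rests on the summed exons.

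The exons summed to 1109 bases for Nop10, 1146 for Nhp2 and 1714 for Gar1, and to 4121 for Dkc1 and 10758 for Nop58, beside a median of 3701 bases over all genes tested. When all genes tested were divided into 10 bins of equal size by exon length, the median log2 fold change was -0.093 in the bin that holds Nop10 and Nhp2, -0.061 in that of Gar1, -0.0015 in that of Dkc1, Fbl and Nop56, and 0.043 in that of Nop58. These bins, like the offset below, rest on summed exons. The principal transcripts of Fbl, Nop56, Nop58 and Dkc1 are shorter, at 1197, 1877, 1713 and 2804 bases. Bins by principal transcript were not formed, so the place of these genes by transcript length was not tested. In the bin of Nop10, the median of log2 CPM centred over the mice was 0.046, 0.021, 0.16 and 0.0012 in control mice 1 to 4 and 0.061, -0.027, -0.087 and -0.085 in tRA mice 1 to 4. Genes of this bin were thus high in control mouse 3 and low in tRA mice 3 and 4. The bin of the shortest genes, from 11 to 879 bases, had a median log2 fold change of -0.061 and shared this order only in part. Its values were 0.064, 0.046, 0.0098 and 0.083 in control mice 1 to 4 and -0.017, 0.020, -0.055 and 0.037 in tRA mice 1 to 4, so that tRA mouse 3 was again the lowest while control mouse 3 was the lowest control. With an offset on length and GC content, the log2 fold change was -0.33 for Nop10, -0.064 for Nhp2, -0.054 for Gar1, 0.13 for Dkc1 and -0.21 for Fbl. It was -0.061 for Nop56, 0.028 for Nop58 and -0.035 for Naf1, and the median of the 8 genes was -0.057. The values of Nhp2, Gar1 and Nop58 were thus over 1.5 times smaller with the offset, as was that of Naf1.

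**Figure D2:**
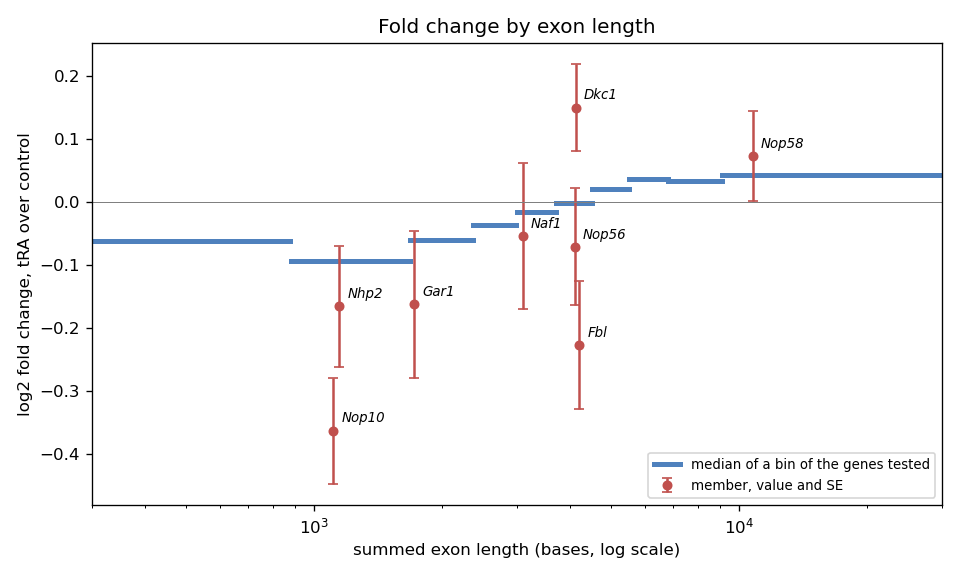
The log2 fold change of tRA over control against summed exon length in bases on a log axis, with a point and standard error for each of the 8 genes and a blue line at the median of each of the 10 bins of genes tested, drawn over its range of lengths. Nop10 lies at -0.36 where its bin has a median of -0.093, and Dkc1 at 0.15 and Fbl at -0.23 lie on either side of the median of their bin. The principal transcripts of Fbl, Nop56, Nop58 and Dkc1 are shorter than the summed exons drawn here.

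By the root mean square difference of centred log2 CPM over the 8 mice, the genes nearest to Nop10 were Snrpd2 (0.064), Cks1b (0.065), Ptov1 (0.070), Mif (0.073) and Timm17b (0.073). Snrpd2, a core protein of spliceosomal RNPs, went from 24.2 ± 2.30 CPM (SD, n = 4) in controls to 18.4 ± 1.74 (SD, n = 4) with tRA, and it too was picked by the study on these mice. All 5 had every tRA mouse below every control mouse, which the nearness to Nop10 largely fixes. Of the other snoRNP genes the nearest to Nop10 was Fbl, at rank 92 with a difference of 0.10, and the farthest was Dkc1, at rank 8134 with 0.28. The genes nearest to Dkc1 were Zfp874b (0.039), Brd7 (0.040) and Terf2 (0.042), a telomere protein. Those nearest to Fbl were the ribosomal protein gene Rps6 (0.030), Mocs3 (0.032) and Cdk2ap2 (0.034).

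The factors that assemble snoRNPs and mature snoRNAs, among them Shq1, the chaperone of dyskerin, were all detected. Of these 13 genes, 0 had an unadjusted p under 0.05 in either direction in edgeR (6.49% of all genes tested). The groups overlapped for all 13 genes (3.54% of all genes tested were separated). Their median log2 fold change was -0.025, and its sign did not hold. It was 0.0089 without tRA replicate 3, 0.014 without tRA replicate 4, 0.0051 with library size alone and 0.0065 with the offset, and -0.063 without control replicate 2. Shq1 was at 6.12 ± 0.231 CPM (SD, n = 4) in controls and 5.82 ± 0.837 (SD, n = 4) with tRA. Xpo1, the nuclear export receptor and the most abundant of these genes, was at 170.2 ± 29.3 CPM (SD, n = 4) and 178 ± 21.9 (SD, n = 4). The largest differences were those of Coil (0.20), Znhit3 (-0.14) and Znhit6 (-0.11). Of 9 telomerase and telomere protein genes tested, where Terc did not pass the filter, 0 had an unadjusted p under 0.05, and the median was -0.0047. This median was -0.047 without tRA replicate 2, its lowest of the fits on 7 mice, and 0.025 with library size alone. Rtel1, the most abundant, was at 89.3 and 91.1 CPM, and the largest differences were those of Wrap53 (-0.16), which takes telomerase to Cajal bodies, Terf2 (0.12) and Pot1a (0.10).

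Genes of ribosome assembly and of ribosomal RNA synthesis were described in the same way. Over all genes tested, 3.55% were lower and 2.94% higher at an unadjusted p under 0.05, and 49.7% had a negative value. Of 24 genes of the U3 processome, which holds the U3 C/D particle, 1 had an unadjusted p under 0.05 and it was lower with tRA, with a median of -0.0093. This median was 0.018 without control replicate 3, 0.019 with library size alone and -0.058 without control replicate 2. That gene, Imp3, was at 38.8 ± 6.05 CPM (SD, n = 4) in controls and 29.9 ± 3.91 (SD, n = 4) with tRA, followed in size by Noc4l (-0.14) and Utp3 (-0.13), and Bms1, the most abundant, was at 130.0 and 135 CPM. Of 19 large subunit assembly factors, 0 had an unadjusted p under 0.05, 15 had a negative value, and the median was -0.097, which became -0.057 without control replicate 3 and -0.052 without tRA replicate 4. Ncl, nucleolin, was at 693 and 662 CPM, and Ppan (-0.21), Nip7 (-0.19) and Rrs1 (-0.18) differed most. Of 15 genes of RNA polymerase I and its factors, 1, Znrd1 (-0.35), had an unadjusted p under 0.05, the median was -0.034, and Ubtf was at 243 and 235 CPM, with Polr1d (-0.22) and Polr1c (-0.17) next in size. The median of that list was -0.0056 without control replicate 3 and -0.059 without control replicate 2.

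Genes of other RNA-protein particles and of snoRNA hosts were counted beside the 3.55% of all genes tested that were lower and the 2.94% that were higher at an unadjusted p under 0.05. Of 14 Sm and LSm genes, which encode the rings around spliceosomal RNAs, 4 had an unadjusted p under 0.05 and were lower with tRA, 0 were higher, and the median was -0.23, or -0.14 without control replicate 3. Snrpf (-0.55), Snrpd2 (-0.40) and Snrpg (-0.38) differed most, Snrpb was at 119 and 107 CPM, and as Snrpf and Snrpd2 were picked by the study on these mice, the count is not independent evidence. Of 79 cytosolic ribosomal protein genes tested, 79 had a negative value, where 49.7% of all genes tested did, and 39 were lower at an unadjusted p under 0.05, with a median of -0.28. The median of this list and all its alternatives were added after seeing the data. Over the fits that left out a mouse, this median ranged from -0.39 without tRA replicate 1 to -0.20 without tRA replicate 3. It was -0.21 with the offset, and 77 of 79 values were then negative. Rps21 (-0.57), Rpl39 (-0.56) and Rpl36 (-0.52) differed most, and Rpl4 was at 2229 and 2002 CPM. Rpl36 was likewise picked by the study on these mice. The summed level of these 79 genes was 49156, 42198, 53237 and 45097 CPM in control mice 1 to 4 and 48746, 39042, 32766 and 36757 CPM in tRA mice 1 to 4. tRA mouse 1 thus lay within the control range and the other tRA mice below it. Of 13 long noncoding snoRNA host genes tested, 3 were lower at an unadjusted p under 0.05, 0 were higher, and the median was -0.21. Their summed level was 800, 853, 956 and 816 CPM in control mice 1 to 4 and 904, 855, 581 and 583 CPM in tRA mice 1 to 4. tRA mice 1 and 2 thus lay within the control range and tRA mice 3 and 4 below it, and the median was -0.13 without either tRA replicate 3 or 4 and -0.31 without tRA replicate 1. Snhg8 (-0.59), Snhg9 (-0.49) and Snhg15 (-0.45) differed most and Gas5 was at 355 and 308 CPM. In the lists of this and the preceding 2 paragraphs, edgeR gave 0 genes at an FDR under 0.1, and DESeq2 gave 1 in the Sm and LSm list, 1 among the ribosomal protein genes and 0 in the others (0.339% of its genes).

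Dkc1, Nop56 and Nop58 themselves hold snoRNAs, 10 in all, with 1 in Dkc1, 5 in Nop56 and 4 in Nop58. None of the 10 passed the filter on low counts, the highest count in a mouse was 9, and none was tested. The 5 with 0 counts in all 8 mice share bases with annotated exons of their host on the same strand, and the 5 with counts share none. Over the control and the tRA mice, Snord110 had 23 and 16 counts, Gm26287 21 and 26, Gm25520 9 and 7, and Snord70 2 and 4. Snord11 had 0, 1, 0 and 0 counts in control mice 1 to 4 and 2, 2, 4 and 2 counts in tRA mice 1 to 4. Its tRA mice all lay above its control mice, by 1 count at the nearest, as 1.91% of all genes tested did. Of the 1558 snoRNA and scaRNA genes, a list whose median was added after seeing the data, 77 passed the filter. Their median log2 fold change was -0.043. It was 0.022 without tRA replicate 3, -0.17 without tRA replicate 2 and -0.13 with at least 10 counts required in every sample. Among the 77, 3 were lower (3.55% of all genes tested) and 3 higher (2.94%) at an unadjusted p under 0.05. Snora31 was at 19.9 and 15.4 CPM, and Gm23772 (1.39), Gm22581 (0.87) and Snord104 (-0.84) differed most. The groups overlapped for each of these genes. Gm23772, at 0.165 CPM in controls and 0.419 with tRA, and Gm22581, at 0.251 and 0.462 CPM, rest on few counts. The paper describes shearing of the cDNA and mentions no step that retains short RNAs. Whether counts on snoRNA genes came from mature snoRNAs or from longer RNAs that span them was not tested. The values above are therefore counts on annotated genes and are not read as levels of mature snoRNAs.

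The snoRNAs below are shown because they are the RNAs on which the C/D core proteins assemble and lie inside the genes of those proteins. Capitals mark the first TGATG, from box C, and the last CTGA, box D, each searched on the given strand within 20 bases of an end, with letters chosen after the sequences had been read. Of the 10 snoRNAs, 7 hold both, as do 23.6% of 1507 annotated snoRNA genes of all classes. The sequences are those of GENCODE M21, from GRCm38, and all lie on the plus strand in introns of the host. Snord110 lies in Nop56 at chr2:130275506-130275573, and Snord70 at chr1:59691934-59692020, Gm26287 at chr1:59704258-59704338 and Snord11 at chr1:59704790-59704873 lie in Nop58.
Snord110: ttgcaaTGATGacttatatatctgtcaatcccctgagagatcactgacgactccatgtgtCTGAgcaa
Snord70: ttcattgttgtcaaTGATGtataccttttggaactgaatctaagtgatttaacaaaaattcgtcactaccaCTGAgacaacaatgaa
Gm26287: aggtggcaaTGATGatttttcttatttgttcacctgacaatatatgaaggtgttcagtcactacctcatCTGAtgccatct
Snord11: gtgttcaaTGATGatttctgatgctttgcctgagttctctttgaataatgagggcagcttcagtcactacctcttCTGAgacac

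Promoters from RefSeq (GRCm38.p6), from 250 bases before to 50 after the start of transcription, matched 6 of the 8 genes, all but Fbl and Naf1. Motifs were searched on both strands, after the promoter of Nop10 had been read, so their presence there is no finding. CTTCCG was in 3 of the 6 promoters (Nop10, Gar1 and Nhp2) and in 16.9% of 32851 promoters, TTCCCAG in 2 of 6 (Nop10 and Nop58) and 11.1%, CCAAT in 4 of 6 and 37.4%, and AGGTCA in 2 of 6 (Nop58 and Nhp2) and 16.3%. CACGTG was in 0 of 6 and 7.15%, and the direct repeat of AGGTCA with 5 bases between, which retinoic acid receptors are known to bind, in 0 of 6 and 0.00913%. As only 3 of 32851 promoters hold this exact repeat, nothing is read from its absence. Other forms of the repeat and sequence beyond these promoters were not searched. Of the H/ACA genes with negative fold changes, windows are shown for Nop10 (TTCCCAG) and Gar1 (the match of CTTCCG nearer to its start), which lie before the gene in GENCODE as well. The CTTCCG match of Nhp2 lies inside the gene in GENCODE and is not shown. The windows are printed with the match in capitals, each read on the strand of its gene. They lie at chr2:112261888-112261916 for Nop10 and at chr3:129831422-129831451, on the minus strand, for Gar1.
Nop10: atggactacatTTCCCAGgatgccttgga
Gar1: cgcgccgccacaCTTCCGgaaacgtcgcgt

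Markers of the cells in the samples were set beside these values. The 6 B cell and 6 T cell markers were all detected, led by Cd79a at 1396 CPM in controls and 1271 with tRA and by Trac at 284 and 309 CPM. Of them, 0 had an unadjusted p under 0.05 (6.49% of all genes tested). Their summed levels were 5473 ± 445 CPM (SD, n = 4) in controls and 5439 ± 100.4 (SD, n = 4) with tRA for B cells, and 1069 ± 109.8 (SD, n = 4) and 1167 ± 21.7 (SD, n = 4) for T cells. The 9 neutrophil precursor granule genes all had negative values, and no marker was at 0. Of the 9, 8 were lower at an unadjusted p under 0.05 (3.55% of all genes tested) and 6 had groups that did not overlap (1.63%). Their summed level was 553, 699, 738 and 633 CPM in control mice 1 to 4 and 252, 315, 345 and 492 CPM in tRA mice 1 to 4, led by Ngp at 325 and 171 CPM. DESeq2 called 4 of the 9 at an FDR under 0.1 (0.339% of its genes). As Camp, Ngp, Ltf and Lcn2 were picked by the study on these mice, these counts are not independent evidence. Every tRA mouse lay below every control mouse in the summed level of these genes, as for Nop10. Among the tRA mice, mouse 1 had the lowest sum and the highest Nop10 level. A link between this sum and Nop10 was not tested.

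Of 7 plasma cell markers, 3 were lower at an unadjusted p under 0.05 (3.55% of all genes tested) and 0 higher (2.94%). Prdm1 (0.11), Xbp1 (0.020) and Irf4 (0.0093) had positive values. Their summed level was 1082, 1040, 1057 and 1250 CPM in control mice 1 to 4 and 954, 1083, 823 and 832 CPM in tRA mice 1 to 4, with Jchain alone at 609 CPM in controls and 443 CPM with tRA. Of these markers, Mzb1 was picked by the study on these mice. Of 8 erythroid genes, 0 had an unadjusted p under 0.05, and their summed level, led by Hbb-bs, was 851, 1616, 2480 and 524 CPM in control mice 1 to 4 and 2323, 664, 3715 and 628 CPM in tRA mice 1 to 4. The paper describes lysis of red blood cells for splenocytes stained for flow cytometry, and whether the RNA samples had this step is not stated. Of 12 cell cycle genes, 0 had an unadjusted p under 0.05, and their summed level, led by Pcna, was 392, 450, 407 and 413 CPM in control mice 1 to 4 and 371, 386, 464 and 359 CPM in tRA mice 1 to 4. tRA mouse 3 was the highest of all mice and the other tRA mice lay below every control mouse. The median log2 fold change of these genes was -0.031, and -0.30 with 12 of 12 negative without tRA replicate 3, whereas it was 0.057, 0.019 and 0.0035 without tRA replicates 1, 2 and 4. The share of counts on mitochondrial genes was 4.06% to 7.06% in the control mice and 5.50% to 6.34% in the tRA mice. The part of these cells, of length and of the mitochondrial share in the values of the snoRNP genes was not tested.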

How the data were processed

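The matrix that the authors deposited holds raw read counts on genes, with a column per mouse. Their paper names Bowtie2, Tophat2 and HTSeq, whereas the submitters' processing notes list STAR 2.5.2b, featureCounts 1.5.1 and DESeq2 1.26.0 on GRCm38, and which made the counts was not settled. Use of strand is not given in the sources used here. Nhp2, Dkc1 and Nop56 share 44, 45 and 5 exon bases with genes on the opposite strand. The authors' DESeq2 comparison was not used. Of 51826 identifiers, 51633 matched GENCODE M21, in which Snhg4 and Snhg7 had no entry. Genes were filtered by filterByExpr (minimum count 10), scaled by TMM and tested with edgeR 4.0.16 in R 4.3.3 (quasi-likelihood test, Benjamini-Hochberg adjustment). DESeq2 1.42.0 was an alternative. The biological coefficient of variation was 0.152, and the main edgeR fit was also run on simulated counts. At an FDR under 0.1 it called 4 of 50 genes with a true log2 change of 0.25 and 32 of 50 at 0.5. It called 50 of 50 at 1 and at 2, so 0 genes called does not exclude small changes. The members and lists were chosen with earlier results of these data known. Named genes were the 8 members, Snu13, Shq1, the most abundant gene and the 3 with the largest absolute log2 fold change of each pathway list, and the genes nearest to Nop10, Dkc1 and Fbl. Of the markers, the most abundant were named, as were those that the study picked and the plasma cell markers with positive values. Alternatives were other scalings, filters, offsets, a replicate block and each mouse left out.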

Additional observations from a re-analysis of the deposited data

How the results depend on the processing

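The number of genes at an FDR under 0.1 was 0 in edgeR's main analysis, with 1070 at an unadjusted p under 0.05. It was 44 with DESeq2, 27 with DESeq2 without the edgeR filter, a setting added after seeing the data, and 6 with edgeR without a filter on low counts, and the cause was not tested. The fits on 7 mice gave 0 to 3 such genes. The log2 fold change of Nop10 was negative under all 18 alternatives, from -0.41 to -0.32, and the median of the 8 genes was negative under all 18, from -0.16 to -0.057. Of the other genes, Naf1 had a positive value in 1 of 18 alternatives (0.018, without control replicate 1), and the other 6 kept their sign. Over the fits that left out a mouse, Nhp2 ranged from -0.22 to -0.11, Gar1 from -0.25 to -0.099, Nop56 from -0.14 to -0.018 and Nop58 from 0.026 to 0.11. The principal transcript in place of the summed exons, added after seeing the data, left 18 of 28 pairs of genes in the same order of level, and the longest transcript 22 of 28. With the replicate block there were 0 genes at an FDR under 0.1, and 0 with the block and the offset. The correlation of mice with the same number across genes was 0.16, -0.023, -0.014 and 0.26 for numbers 1 to 4. Control mice 1 and 4 correlated best with the tRA mouse of their own number. Control mouse 2 did so with tRA mouse 3, and control mouse 3 with tRA mouse 1. Whether mice of the same number share more than the number, such as a batch, cannot be told from these values. Protein-coding genes only gives no value for the noncoding host genes. The snoRNAs inside these genes had at most 9 counts in a mouse, and the cause of these low counts was not tested.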
